A study of Homo sapiens with 12 samples.

Results

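Small nucleolar RNA host genes and the best known nuclear long noncoding RNAs (lncRNAs) were followed in JJN3 cells, a human multiple myeloma line, after inhibition of the type I protein arginine methyltransferases with MS023 or after targeting of PRMT1, the main enzyme of that class. The genes were taken by name: every symbol made of SNHG and a number, together with GAS5, DANCR, MALAT1, NEAT1 and TUG1. This gave 33 genes, 28 SNHG symbols and the 5 given by name, of 59276 gene symbols with a value.

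Small nucleolar RNAs (snoRNAs) guide the chemical modification of ribosomal RNA: the C/D box class, named SNORD, directs ribose methylation, and the H/ACA box class, named SNORA, directs pseudouridylation. Most human snoRNAs lie in introns and are released when the host transcript is spliced. In the SNHG genes, in GAS5 and in DANCR the spliced exons form an lncRNA, and many of these spliced RNAs are removed by nonsense-mediated decay once ribosomes engage them. NEAT1, MALAT1 and TUG1 are different: NEAT1 is the architectural RNA of paraspeckles, nuclear bodies that hold RNA-binding proteins, MALAT1 is an abundant unspliced RNA of nuclear speckles, where splicing factors are stored, and TUG1 is a spliced lncRNA found largely in the nucleus. Many RNA-binding proteins of these bodies carry arginine-glycine repeats, which type I enzymes methylate.

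RNA was sequenced from 4 groups of 3 samples, all JJN3. Parental cells were cultured for 3 days with DMSO, the vehicle, or with 10 µM MS023. In the other pair of groups, cells stably expressing Cas9 carried a guide RNA under a doxycycline-inducible promoter, either the control guide (isgCtrl) or 1 guide against PRMT1 (iPRMT1_1, group PRMT1-KO), and both received doxycycline for 3 days. The 2 control groups thus differed in Cas9, guide, doxycycline and DMSO, so each treatment was compared with its own control. The labels do not say whether samples of a group came from separate cultures, so p-values measure the spread between these samples, which may be technical. Over 60000000 read pairs per sample are stated in the labels. The values are TPM, a length-corrected share of all transcripts scaled to a sum of 1000000 in every sample, and they keep no depth. Since TPM are shares of RNA in bulk cells, fewer cells of a state and less RNA per cell cannot be told apart.

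PRMT1 mRNA checked the labels. In isgCtrl cells it was 867, 863 and 849 TPM, and in PRMT1-KO cells 302, 309 and 301 TPM, a difference of -1.50 on the log2(TPM+1) scale (limma, with p adjusted over all genes by Benjamini-Hochberg, adjusted p = 7.20e-04). It was 634, 657 and 669.6 TPM with DMSO and 664, 700.0 and 656 TPM with MS023, where the groups overlapped. The plasma cell markers SDC1, IRF4, XBP1 and TNFRSF17 stayed above 86.5 TPM in every sample, whereas CD38, SLAMF7 and MZB1 ranged down to 0.734, 0.149 and 0.341 TPM. SLAMF7 and MZB1 were low in the Cas9 cells. Mean MZB1 was 105 TPM with DMSO and 2.01 TPM with isgCtrl, and mean SLAMF7 was 9.32 and 0.369 TPM. Between isgCtrl and DMSO cells 1 of the 8 markers was called higher and 3 lower, by the thresholds given below. Of all genes tested, 7.23% were called higher and 6.7% lower. The T cell and myeloid markers reached at most 0.625 and 2.08 TPM, and the stromal markers at most 6.06 TPM (COL1A1). Of the 8 plasma cell markers, 4 rose and 1 fell with MS023, and their summed level was 716 to 755 TPM with DMSO and 1153 to 1197 TPM with MS023. The part of cell state in the results on lncRNAs was not tested.

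Transcripts of many snoRNA hosts begin with a C followed by a run of pyrimidines, the terminal oligopyrimidine (TOP) start that they share with ribosomal protein mRNAs. The 50 bases from 20 before the annotated start to 30 from the start on were therefore read for each gene in the strand of the gene (RefSeq on GRCh38.p14), and a match was counted where a run of at least 5 C or T, beginning with C, stood at the start. A window was at hand for 28 of the 33 genes, and none for SNHG6, SNHG9, SNHG15, SNHG25 and NEAT1. A match was found in 6 of them (21.4%), namely SNHG4, SNHG5, SNHG12, SNHG18, SNHG19 and SNHG32, against 15 of 25 (60.0%) for a list of protein-coding snoRNA hosts and 1404 of 27305 (5.14%) for all symbols. The windows of GAS5, SNHG3 and SNHG14 held none, but they lie wholly outside the GENCODE v44 spans of these genes. For GAS5 the window is chr1:173869016-173869065 (minus strand), whereas the span ends at 173868882. Starts within these spans were not read, so a match there could have been missed. The windows below are a selection, with the run of C and T at the start in capitals. They are those of the tested hosts with a match and of SNHG8, SNHG29, DANCR and SNHG17, which changed with MS023 and hold no match at the annotated start. Runs of C and T elsewhere in a window, such as that shortly before the start of SNHG29, were not counted. SNHG3, SNHG10, SNHG11 and MALAT1 also changed with MS023, and their windows, not shown, hold no match. Nor do those of SNHG21 and SNHG30, which were called in a test further on. Of the windows below, the first 5 hold a match.
SNHG5: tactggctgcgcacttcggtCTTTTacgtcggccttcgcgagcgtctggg
SNHG19: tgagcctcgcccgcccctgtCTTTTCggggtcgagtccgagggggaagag
SNHG12: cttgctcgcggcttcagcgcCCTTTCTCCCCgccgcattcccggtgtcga
SNHG4: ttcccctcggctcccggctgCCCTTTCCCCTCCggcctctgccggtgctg
SNHG32: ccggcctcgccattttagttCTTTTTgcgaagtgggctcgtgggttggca
SNHG8: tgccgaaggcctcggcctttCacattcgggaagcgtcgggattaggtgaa
SNHG29: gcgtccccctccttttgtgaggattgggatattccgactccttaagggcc
DANCR: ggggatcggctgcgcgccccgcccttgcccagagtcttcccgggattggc
SNHG17: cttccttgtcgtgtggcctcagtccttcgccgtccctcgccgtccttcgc

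The windows lie at chr6:85678704-85678753 (SNHG5, minus strand), chr16:2155329-2155378 (SNHG19, minus), chr1:28581844-28581893 (SNHG12, minus), chr5:139274081-139274130 (SNHG4, plus), chr6:31834896-31834945 (SNHG32, plus), chr4:118278742-118278791 (SNHG8, plus), chr17:16438967-16439016 (SNHG29, plus), chr4:52712374-52712423 (DANCR, plus) and chr20:38435299-38435348 (SNHG17, minus). They show 1 annotated start for each gene, and other starts were not searched. The run at the start was 5 bases in SNHG5, 6 in SNHG19 and SNHG32, 11 in SNHG12, 13 in SNHG4 and 21 in SNHG18 (not shown), and 1 in SNHG8, whereas SNHG29, DANCR and SNHG17 had no C or T at this base. Among the genes with a match, SNHG5 and SNHG19 rose with MS023, SNHG4, SNHG12 and SNHG32 did not pass the fold threshold, and SNHG18 was too low to test.

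By position, 25 of the 33 genes hold at least 1 snoRNA gene of RefSeq within their span, and 8 hold none, among them MALAT1, NEAT1 and TUG1. Small Cajal body RNAs were not counted. SNHG14, the long transcript of the imprinted locus on chromosome 15, holds 83, GAS5 holds 11, SNHG1 holds 9 and SNHG17 holds 5. The values measure the host RNA and not its snoRNAs: of 119 such snoRNAs with a symbol in the table, 117 were listed at 0 in every sample. The other 2 varied within each group. SNORA73B, from an intron of SNHG3, was 0.944, 5.21 and 1.09 TPM with MS023 and 8.14, 2.25 and 7.85 TPM with DMSO, which overlapped. It was 12.5, 20.3 and 17.0 TPM with PRMT1-KO and 0.893, 11.1 and 9.62 TPM with isgCtrl, so each knockout sample lay above each control, whereas those of SNHG3 lay below (values further on). This comparison of SNORA73B was chosen after its values were seen.

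The host RNAs differed widely in level. SNHG29 and GAS5 were the most abundant of the 33 in each group, at 1039 to 1065 TPM and 829.8 to 879 TPM with DMSO. SNHG32 came next at 502 to 524 TPM with DMSO, and these 3 genes held 55.9% of the summed TPM of the 33. The sum itself was 4225 to 4394 TPM with DMSO and 5732 to 5928 TPM with MS023, ranges that did not overlap. It was 4902 to 4979 TPM with isgCtrl and 4739 to 4952 TPM with PRMT1-KO, which overlapped. A gene was tested where its mean log2(TPM+1) exceeded 1 in at least 1 group of the comparison, and 29 of the 33 passed in each comparison. The other 4 were near the floor. SNHG27 reached at most 0.123 TPM and SNHG28 at most 0.406 TPM. SNHG18 was 0.137, 0.778 and 2.72 TPM with MS023 and 0.236, 0.203 and 0.184 TPM with DMSO. SNHG31 was 1.06, 0.272 and 0.759 TPM with DMSO and 0.201, 0.0398 and 0.0670 TPM with MS023, which did not overlap but lay under the level tested.

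MS023 changed 13 of the 29 genes tested, 10 upward and 3 downward. A gene was called where the adjusted p was under 0.05 and the absolute log2 fold change above 0.48, and 30.9% of all genes tested met this, 11.6% higher and 19.3% lower. Over the 29 genes the fold changes had a log2 median of 0.34, and over all 12903 genes tested it was -0.11. The genes that rose were SNHG19, NEAT1, SNHG9, SNHG25, SNHG5, MALAT1, DANCR, SNHG8, SNHG29 and SNHG3, and those that fell were SNHG11, SNHG17 and SNHG10. Scaling by the median ratio of each sample moved the median of all genes by 0.14, to 0.03. The called genes went from 1500 higher and 2486 lower to 2175 and 1763, the latter of 13002 tested. Under this scaling 30 of the lncRNAs were tested, and 13 were called higher and 1 lower. SNHG12, SNHG21 and TUG1 joined those called higher, and SNHG17 and SNHG10 left those called lower.

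**Figure D1:**
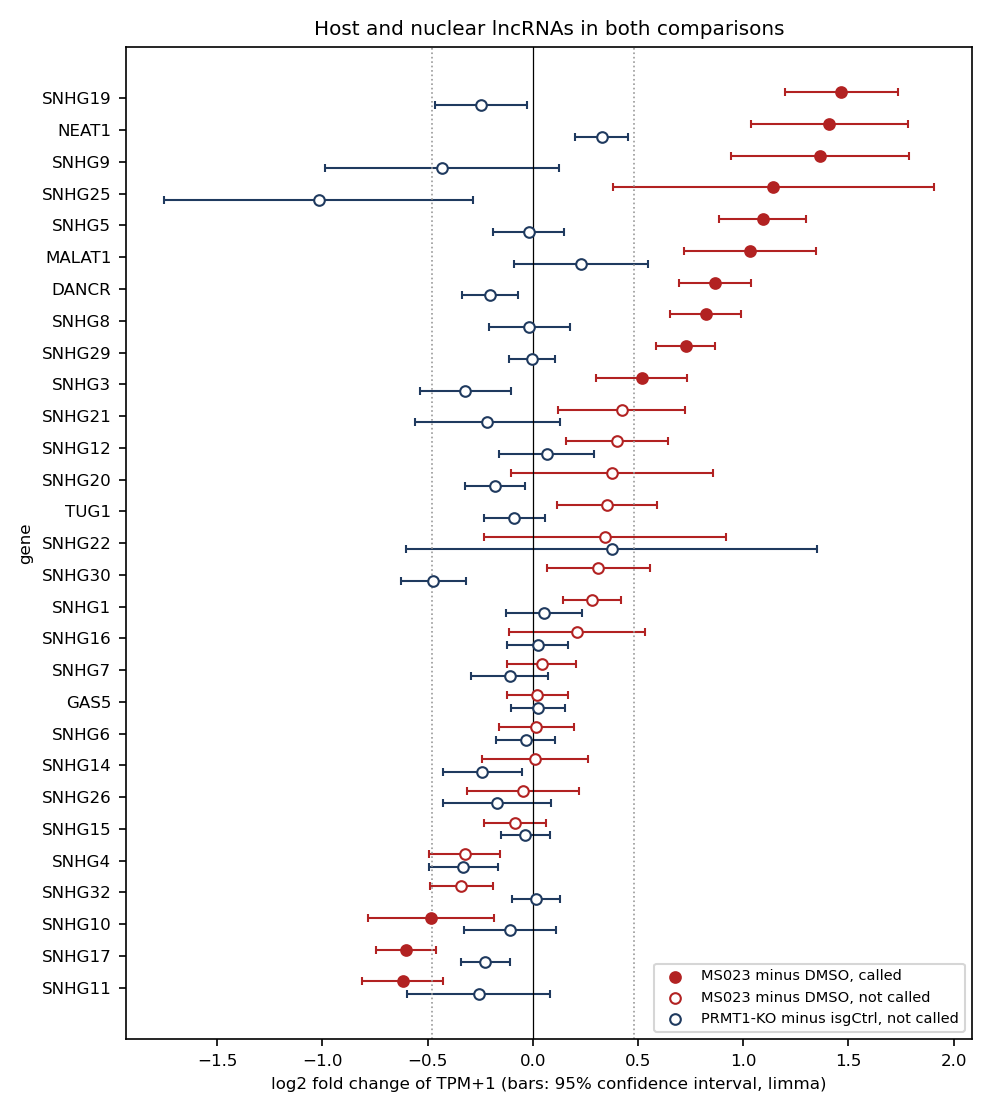
Log2 fold change (x axis) of the 29 tested genes (y axis, ordered by their change with MS023) for MS023 minus DMSO in red and PRMT1-KO minus isgCtrl in blue, 3 samples against 3 each. Points are limma estimates, filled where called, bars are 95% confidence intervals and dotted lines mark 0.48 in both directions. The red points reach from -0.62 (SNHG11) to 1.47 (SNHG19), with 13 filled, and no blue point is filled.

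NEAT1 and MALAT1, RNAs of paraspeckles and nuclear speckles, both rose at the level of the gene. A gene's value covers all its transcripts (9 are annotated for NEAT1 in GENCODE v44), so which of them rose is not known. NEAT1 was 58.3, 59.2 and 56.7 TPM with DMSO and 175, 122 and 177 TPM with MS023. Each treated sample lay above each control, 1 of them less far than the other two, and the ratio of means was 2.72 (log2 fold change 1.41, 95% interval 1.04 to 1.78, limma adjusted p = 8.71e-04). MALAT1 was 101, 99.0 and 84.8 TPM with DMSO and 166, 221 and 200.4 TPM with MS023, a ratio of 2.07 (log2 fold change 1.03, 0.72 to 1.35, limma adjusted p = 0.00143). The groups did not overlap for either RNA. For TUG1, the other nuclear lncRNA, the values were 17.9, 16.4 and 16.8 TPM with DMSO and 21.6, 19.8 and 24.9 TPM with MS023. These groups did not overlap either, but the log2 fold change of 0.35 (limma adjusted p = 0.0257) was under the fold threshold. It was called with median-ratio scaling (0.50) and quantile normalization (0.50). NEAT1 and MALAT1 lie near each other on chromosome 11 of GRCh38, from 65422774 to 65445540 and from 65497640 to 65508073, both on the plus strand.

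The largest fold change of all 29 belonged to SNHG19, the host of the C/D snoRNA SNORD60, with 105, 132 and 111 TPM in DMSO and 303, 352 and 312 TPM in MS023. The treated samples lay far above the controls, with a log2 fold change of 1.47 (1.20 to 1.74, limma adjusted p = 2.67e-04). SNHG9, the host of the H/ACA snoRNA SNORA78, was 43.0, 44.6 and 30.4 TPM with DMSO and 89.3, 102 and 116 TPM with MS023 (log2 fold change 1.37, 0.94 to 1.79, limma adjusted p = 0.00152). Here too every treated sample exceeded every control. SNHG25, which holds SNORD104 and SNORA50C, was 4.91, 4.56 and 4.35 TPM with DMSO and 11.0, 18.7 and 7.01 TPM with MS023. The treated samples were all higher but spread widely, and the log2 fold change of 1.14 had an interval from 0.38 to 1.90 (limma adjusted p = 0.0250). That call was lost when any DMSO sample was left out (adjusted p of 0.0613, 0.0648 and 0.0674 without replicates 1, 2 and 3) or without MS023 replicate 1 (0.0614), as it was without the filter on low values (0.0727).

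These 3 hosts have the shortest transcripts of the genes tested here, with a longest GENCODE v44 transcript of 564 bases (SNHG19), 471 bases (SNHG9) and 311 bases (SNHG25). Over all 219 tested genes with a longest transcript under 600 bases the MS023 fold changes had a log2 median of 0.06, with quartiles of -0.60 and 0.67, and 13.2% were called higher. In the 2390 genes of 6000 bases or more the median was -0.19 and 7.03% were called higher, and there 4 of 6 lncRNAs rose: NEAT1, MALAT1, SNHG8 and DANCR. By the study's methods the TPM rest on an earlier GENCODE release. The longest transcript of a gene also need not be the one most expressed in these cells. The part of transcript length in the changes was not tested further. In a count added after the data were seen, the 3 short hosts left out, 10 of 26 lncRNAs were called, 7 higher and 3 lower. Of all genes tested, 11.6% were called higher and 19.3% lower.

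Among the longer hosts SNHG5 rose most. SNHG5, which carries SNORD50A and SNORD50B and the short pyrimidine start shown above, was 205, 223 and 209 TPM with DMSO and 478, 473 and 412 TPM with MS023 (log2 fold change 1.09, 0.89 to 1.30, limma adjusted p = 2.79e-04). The 2 groups lay far apart, with a ratio of means of 2.14. DANCR, an lncRNA named for its action against differentiation and the host of SNORA26, was 101, 95.5 and 109 TPM with DMSO and 188, 187 and 183 TPM with MS023 (log2 fold change 0.87, 0.69 to 1.04, limma adjusted p = 3.34e-04). Its treated samples lay close together and exceeded every control. SNHG8, the host of SNORA24, was 168, 161 and 158 TPM with DMSO and 288, 304 and 273 TPM with MS023 (log2 fold change 0.82, 0.65 to 0.99, limma adjusted p = 3.71e-04). Neither SNHG8 nor DANCR has the pyrimidine run at the start shown above.

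SNHG29, the most abundant of the 33 genes and the host of SNORD49A, SNORD49B and SNORD65, was 1065, 1049 and 1039 TPM with DMSO and 1766, 1751 and 1701 TPM with MS023. The spread within each group was small beside the difference, and the log2 fold change was 0.73 (0.59 to 0.87, limma adjusted p = 2.98e-04). SNHG3, the host of SNORA73A and SNORA73B, which act in the cleavage of the ribosomal RNA precursor, was 39.5, 32.5 and 37.6 TPM with DMSO and 51.4, 51.5 and 54.8 TPM with MS023. The groups did not overlap, and the log2 fold change of 0.52 (0.30 to 0.74, limma adjusted p = 0.00483) was just past the threshold. It was 0.44, under the threshold, without DMSO replicate 2. SNHG3 shares exon sequence on the same strand with RCC1, a chromatin-bound exchange factor for the GTPase Ran, and reads of shared exons cannot be assigned to 1 gene with certainty. RCC1 had a log2 fold change of -0.41 (limma adjusted p = 0.00404), opposite in sign to SNHG3.

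**Figure D2:**
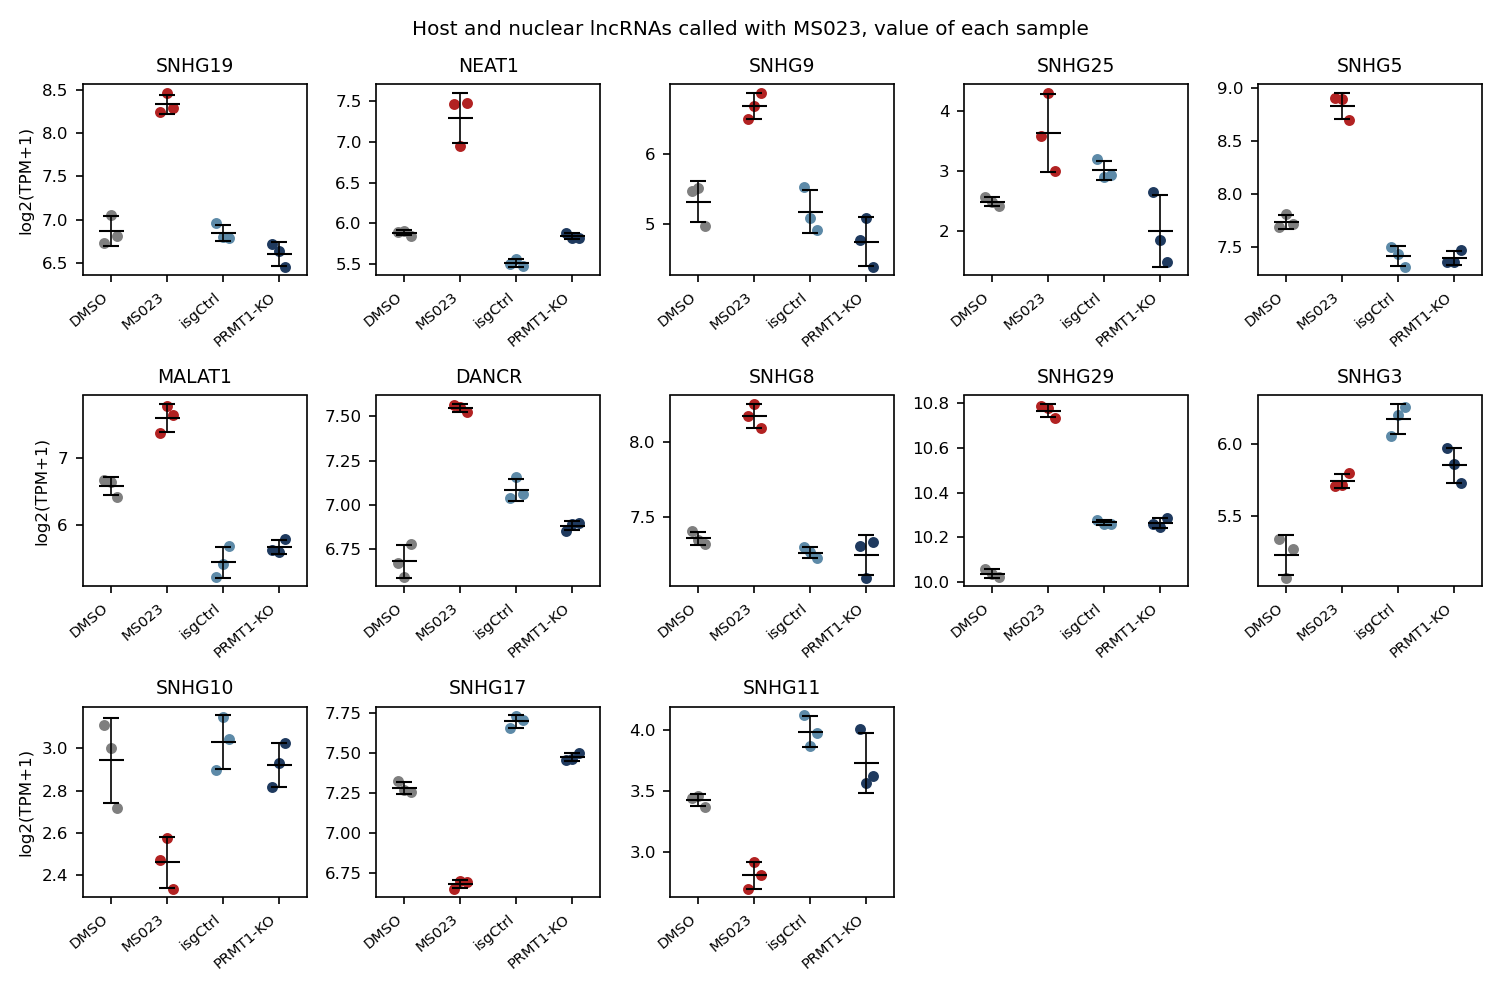
Log2(TPM+1) of each sample (points, 3 in each group) for the 13 genes called with MS023, 1 panel for each gene with its own y axis, in DMSO, MS023, isgCtrl and PRMT1-KO cells. Bars show the mean and SD of 3 samples. In the first 10 panels all MS023 samples lie above all DMSO samples and in the last 3 all lie below. The genes were picked by their calls in these same samples, so this separation is no further evidence. DMSO and isgCtrl differ for several genes, such as MALAT1 and SNHG3.

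The 3 genes that fell with MS023 were SNHG11, SNHG17 and SNHG10. SNHG11, which holds SNORA60 and SNORA71E, was 9.87, 10.0 and 9.33 TPM with DMSO and 5.48, 6.56 and 5.99 TPM with MS023 (log2 fold change -0.62, -0.81 to -0.42, limma adjusted p = 0.00158). SNHG17, its neighbour on chromosome 20 and the host of SNORA71A to SNORA71D, was 159, 153 and 152 TPM with DMSO and 99.4, 103 and 102 TPM with MS023 (log2 fold change -0.60, -0.75 to -0.46, limma adjusted p = 6.12e-04). Both genes had every treated sample under every control. They lie on opposite strands of GRCh38, SNHG17 from 38419638 to 38435409 on the minus strand and SNHG11 from 38446343 to 38450940 on the plus strand, with their starts head to head.

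SNHG10, whose host intron gives the small Cajal body RNA SCARNA13, was 7.62, 7.01 and 5.58 TPM with DMSO and 4.55, 4.96 and 4.05 TPM with MS023. The groups did not overlap, and the log2 fold change was -0.48 (-0.78 to -0.18, limma adjusted p = 0.0197), at the edge of the threshold. The call was lost without DMSO replicate 1 (log2 fold change -0.40, adjusted p = 0.0582), DMSO replicate 2 (-0.45, 0.0599), MS023 replicate 1 (-0.49, 0.0536) or MS023 replicate 3 (-0.42, 0.0587) in limma, and with median-ratio scaling (-0.36) and quantile normalization (-0.36). GLRX5, a mitochondrial glutaredoxin that overlaps SNHG10 on the other strand, had a log2 fold change of -0.28 (limma adjusted p = 0.0185). Whether the libraries kept strand is not given in the sources used here, so reads of such overlapping exons cannot be told apart.

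Of the 16 genes tested but not called, 7 had an adjusted p under 0.05 with a smaller fold change. SNHG21, SNHG12, TUG1, SNHG30 and SNHG1 lay between 0.28 (SNHG1) and 0.42 (SNHG21), and SNHG32 and SNHG4 lay at -0.34 and -0.32. SNHG32, the host of SNORD48 and SNORD52, was 502, 524 and 505 TPM with DMSO and 418, 399.8 and 392 TPM with MS023, which did not overlap. SNHG12, the host of SNORD99 and 3 H/ACA RNAs, was 70.5, 69.1 and 61.6 TPM with DMSO and 87.8, 98.7 and 80.8 TPM with MS023. Of the 3 hosts with a run of over 10 bases at the start, SNHG12 was at 0.40, SNHG4 at -0.32 and SNHG18 too low to test. SNHG21 passed both thresholds when DMSO replicate 2 (0.52) or MS023 replicate 2 (0.50) was left out, with median-ratio scaling (0.56) and with quantile normalization (0.58). SNHG4 shares exons on the same strand with MATR3, a nuclear matrix protein whose RNA fell (log2 fold change -0.71, limma adjusted p = 3.35e-04).

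GAS5, the classic multi-snoRNA host with 11 snoRNAs, accumulates when growth arrests because its decay slows. It was 833, 879 and 829.8 TPM with DMSO and 869.8, 855 and 854 TPM with MS023, and the groups overlapped. The log2 fold change of 0.02 had a 95% interval from -0.12 to 0.17 (limma adjusted p = 0.785). The other genes with an adjusted p above 0.05 were SNHG6, SNHG7, SNHG14, SNHG15, SNHG16, SNHG20, SNHG22 and SNHG26, with log2 fold changes from -0.08 (SNHG15) to 0.38 (SNHG20). SNHG15 and SNHG7 had the narrowest 95% intervals of these, -0.23 to 0.06 and -0.12 to 0.21. SNHG20 was 9.11, 14.4 and 8.05 TPM with MS023, where 1 sample stood apart, and 7.66, 7.60 and 7.63 TPM with DMSO.

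Targeting of PRMT1 gave no called gene among the 29 (0 of 29 in limma), where 0.781% of all 12285 genes tested were called, 51 higher and 45 lower (73 and 32 with median-ratio scaling). This count of 96 genes fell whichever of the 6 samples was left out, to between 2 (without isgCtrl replicate 2) and 21 (without isgCtrl replicate 3). An unadjusted p under 0.05 was reached by 10 of the 29 and by 2290 of all genes. The median log2 fold change of the 29 was -0.11, and that of all genes was -0.04. SNHG30, the host of SNORD7, was 9.54, 10.1 and 9.61 TPM with isgCtrl and 6.67, 6.33 and 7.27 TPM with PRMT1-KO. These groups were well apart, and the log2 fold change of -0.47 (-0.63 to -0.32, limma adjusted p = 0.0403) was just short of the fold threshold. With a pseudocount of 0.1 in place of 1 it was -0.53 (limma adjusted p = 0.0468) and was called, which made the count 1.

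NEAT1 came next by p among the lncRNAs. It was 44.3, 46.4 and 43.5 TPM with isgCtrl and 58.2, 55.4 and 55.8 TPM with PRMT1-KO, with no overlap, and had a log2 fold change of 0.33 (0.20 to 0.46, limma adjusted p = 0.0538). MALAT1 was 36.0, 41.7 and 50.2 TPM with isgCtrl and 48.1, 47.3 and 54.0 TPM with PRMT1-KO, where the groups overlapped (log2 fold change 0.23, -0.09 to 0.55). SNHG25 was 8.17, 6.48 and 6.61 TPM with isgCtrl and 5.28, 2.59 and 1.79 TPM with PRMT1-KO. Each knockout sample was lower, but they spread widely, and the log2 fold change of -1.02 (-1.75 to -0.28) had a limma adjusted p of 0.172. The other short hosts were SNHG9, with 45.0, 32.9 and 29.2 against 26.3, 32.7 and 19.9 TPM (-0.43, -0.99 to 0.13), and SNHG19, with 123, 111 and 109 against 104, 98.8 and 86.7 TPM (-0.24, -0.46 to -0.03).

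For the remaining hosts that rose with MS023 the intervals after PRMT1 targeting were narrow. SNHG29 was 1242, 1225 and 1226 TPM with isgCtrl and 1226, 1214 and 1249.8 TPM with PRMT1-KO (log2 fold change -0.0015, -0.11 to 0.11). SNHG5 was 180.2, 172 and 158 TPM with isgCtrl and 163, 163 and 176 TPM with PRMT1-KO (-0.02, -0.19 to 0.15). SNHG8 was 156, 152 and 148 TPM with isgCtrl and 157, 135 and 160.0 TPM with PRMT1-KO (-0.02, -0.21 to 0.18). In these 3 genes the samples of the groups overlapped. DANCR was 131, 142 and 132 TPM with isgCtrl and 114, 118 and 118 TPM with PRMT1-KO, which did not overlap (-0.20, -0.34 to -0.07, limma adjusted p = 0.144). SNHG3 was 65.7, 72.8 and 75.8 TPM with isgCtrl and 61.8, 57.1 and 52.1 TPM with PRMT1-KO, also without overlap (-0.32, -0.54 to -0.11, limma adjusted p = 0.153).

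The genes that fell with MS023 were not called either. SNHG17 was 201, 212 and 208 TPM with isgCtrl and 175, 175 and 180.5 TPM with PRMT1-KO (log2 fold change -0.22, -0.34 to -0.11, limma adjusted p = 0.101). SNHG11 was 16.4, 13.6 and 14.7 TPM with isgCtrl and 15.1, 10.8 and 11.3 TPM with PRMT1-KO (-0.26, -0.60 to 0.08). SNHG10 was 6.45, 7.87 and 7.25 TPM with isgCtrl and 6.04, 6.61 and 7.13 TPM with PRMT1-KO (-0.11, -0.33 to 0.11). The samples of SNHG17 were apart, and those of the other two overlapped. GAS5 was 1044, 1001 and 1035 TPM with isgCtrl and 1054, 1004 and 1077 TPM with PRMT1-KO (0.03, -0.10 to 0.15). The knockout samples still held PRMT1 mRNA at a ratio of 0.354 to the control, which is not a measure of the protein. By western blot, the study reports efficient loss of the PRMT1 protein after induction of the guide. The share of edited cells was not analysed here.

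Whether the 2 treatments differed in their effects was tested as an interaction, with all 12 samples in 1 limma model. Of the 29 lncRNAs 12 were called, against 24.4% of all 13256 genes tested, and all 12 were higher, against 9.69% of all genes. All genes called were 1284 higher and 1947 lower, or 1754 and 1468 with median-ratio scaling. The 12 were SNHG25, SNHG9, SNHG19, SNHG5, NEAT1, DANCR, SNHG8, SNHG3, MALAT1, SNHG30, SNHG29 and SNHG21. They included all 10 genes that rose with MS023, whose samples enter this test again, and these 10 ranged from 0.73 for SNHG29 (95% interval 0.60 to 0.86) to 2.16 for SNHG25 (1.11 to 3.21).

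SNHG30 and SNHG21 were called in this test and in neither comparison alone. SNHG30 was 8.51, 9.58 and 8.43 TPM with DMSO and 11.7, 12.1 and 9.79 TPM with MS023, higher in each treated sample, and lower in each knockout sample (values above). Its effects were 0.31 and -0.47, a difference of 0.78 (0.52 to 1.05, limma adjusted p = 7.09e-04). SNHG21 was 9.44, 11.6 and 8.98 TPM with DMSO, 15.3, 12.2 and 13.7 TPM with MS023, 8.90, 5.85 and 7.12 TPM with isgCtrl and 6.26, 5.56 and 6.40 TPM with PRMT1-KO. Only the MS023 samples stood clear of their controls, and the difference was 0.64 (0.20 to 1.08, limma adjusted p = 0.0300). It was lost without DMSO replicate 1 (adjusted p = 0.0642), DMSO replicate 3 (0.0665), MS023 replicate 1 (0.0677), MS023 replicate 3 (0.0529), isgCtrl replicate 1 (0.0566), isgCtrl replicate 3 (0.0524) or PRMT1-KO replicate 2 (0.0668) in limma, and without the filter on low values (0.0695).

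Genes that did not pass the test of the difference included those that fell with MS023. SNHG17 had a difference of -0.38 (-0.52 to -0.23, limma adjusted p = 0.00138) and SNHG32 one of -0.36 (-0.50 to -0.21, limma adjusted p = 0.00218), both under the fold threshold. For SNHG10 and SNHG11 the differences were -0.37 (-0.73 to -0.02) and -0.36 (-0.73 to 0.01). SNHG4 was 23.4, 22.3 and 22.6 TPM with DMSO, 17.0, 17.9 and 19.2 TPM with MS023, 30.4, 30.9 and 34.6 TPM with isgCtrl and 26.1, 24.7 and 24.8 TPM with PRMT1-KO. It was lower in every sample of either treatment than in its controls, by 0.32 and 0.33 on the log2 scale, and the difference of 0.01 had an interval from -0.20 to 0.21. For GAS5 the interval of the difference was -0.16 to 0.15. For TUG1 the difference was 0.44 (limma adjusted p = 0.0127), under the fold threshold. It was called with median-ratio scaling (0.55, limma adjusted p = 0.00128), with quantile normalization (0.55, limma adjusted p = 0.00115) and without MS023 replicate 2 (0.51).

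The baselines of the 2 control groups differed for several of these genes. Between isgCtrl and DMSO cells 6 of the 29 were called, against 13.9% of all genes tested. Of these 5 were higher in isgCtrl cells, against 7.23% of all genes, and 1 was lower, against 6.7%. All genes called were 915 higher and 848 lower, or 576 and 1022 with median-ratio scaling. MALAT1 was the lower one, at 36.0 to 50.2 TPM with isgCtrl and 84.8 to 101 TPM with DMSO (log2 fold change -1.14, -1.48 to -0.81, limma adjusted p = 0.00301). It was thus at its lowest in the 2 groups with Cas9 and doxycycline, and the several differences between the control groups cannot be told apart.

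The 5 higher genes were SNHG3, SNHG26, SNHG7, SNHG11 and SNHG25. SNHG3, at 65.7 to 75.8 TPM with isgCtrl and 32.5 to 39.5 TPM with DMSO, differed most (log2 fold change 0.95, 0.72 to 1.19, limma adjusted p = 0.00192). SNHG26, the host of SNORD93, was 16.1, 12.9 and 13.7 TPM with DMSO, 14.7, 14.3 and 12.3 TPM with MS023, 23.9, 23.4 and 26.1 TPM with isgCtrl and 24.9, 19.2 and 21.1 TPM with PRMT1-KO. It was higher in both groups of Cas9 cells than in both groups of parental cells (0.74 between controls, limma adjusted p = 0.00358) and was called with neither treatment. SNHG7, the host of SNORA17A and SNORA17B, had the same order, with 79.6, 86.4 and 88.7 TPM with DMSO, 88.7, 87.5 and 86.2 TPM with MS023, 123, 138 and 122 TPM with isgCtrl and 127, 115 and 113 TPM with PRMT1-KO (0.58 between controls, limma adjusted p = 0.00362). SNHG11 differed by 0.56 and SNHG25 by 0.52, and the call for the latter was lost without isgCtrl replicate 1 (0.43), with median-ratio scaling (0.45) and in the fit of all 12 samples (limma adjusted p = 0.237). This comparison shares its DMSO samples with that of MS023 and its isgCtrl samples with that of PRMT1 targeting, so high or low values of these samples enter both.

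Other genes of the same pathways were examined as lists. Of 8 core snoRNP proteins, which bind mature snoRNAs, 1 fell with MS023, none rose and 7 were not called, with a median log2 fold change of -0.29. With median-ratio scaling 1 fell and 1 rose (median -0.14). The single fall of 8 stands beside the 19.3% of all genes called lower. The one that fell was NOP56, a C/D box core protein, with means of 468.7 TPM in DMSO and 250.5 TPM in MS023 (-0.90, limma adjusted p = 1.46e-04). FBL, the C/D box methyltransferase fibrillarin, had -0.48 (limma adjusted p = 0.00450), short of the threshold. Of 10 snoRNP assembly factors 2 fell, RPAP3 (-0.71) and NAF1 (-0.55), and none rose, with a median of -0.32, beside the same 19.3% of all genes. NAF1, which brings H/ACA proteins together, was not called with median-ratio scaling (-0.42).

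Among 17 factors of nonsense-mediated decay, the pathway that removes many host RNAs, 3 fell and none rose (median -0.21), a share close to the 19.3% of all genes called lower. These were MAGOHB (-1.01), an exon junction protein, PNRC2 (-0.89), which links the pathway to decapping, and UPF3B (-0.80), a core factor. UPF1, the central helicase, had -0.26 (limma adjusted p = 0.0283) and was not called. Of 30 protein-coding snoRNA hosts, mostly ribosomal protein and translation factor genes, NOP56 alone was called, and the median was -0.14. With median-ratio scaling 1 fell and 1 rose (median 0.01).

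The mRNAs of many nuclear body proteins were lower with MS023. Of 18 paraspeckle proteins 9 fell and none rose with MS023, with a median of -0.44, and 5 fell with median-ratio scaling. Among those that fell were RBMX (-0.85), an RNA-binding protein that acts in splicing, TARDBP (-0.74) and MATR3 (-0.71). NONO, a defining paraspeckle protein, had -0.20 (limma adjusted p = 0.0328) and was not called. Of 18 nuclear speckle proteins 6 fell and none rose, with a median of -0.34, and 4 fell with median-ratio scaling. PNN (-0.98), SRRM1 (-0.92), SRSF1 (-0.86) and SRSF7 (-0.72), all splicing factors or their partners, fell most, whereas SON, a speckle scaffold, had 0.16 (-0.06 to 0.39). The counts without scaling stand beside the 19.3% of all genes that were called lower. Those with median-ratio scaling stand beside 1763 of 13002 genes called lower.

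Of 26 other lncRNAs 19 were tested, and 5 rose and 5 fell with MS023 (median 0.12). These 10 of 19 called stand beside 30.9% of all genes tested and 13 of the 29 lncRNAs followed here. MIR22HG (1.79) and LINC-PINT (1.64) rose most, and DLEU2 (-1.72) and DLEU1 (-1.49), neighbouring lncRNAs of the 13q14 region often deleted in myeloma, fell most. ZFAS1, a snoRNA host without an SNHG symbol, had 0.23 (limma adjusted p = 0.0276) and was not called. After PRMT1 targeting no gene of any of these lists was called in limma. An unadjusted p under 0.05 was reached by 2 of 8 snoRNP proteins, 2 of 10 assembly factors, 3 of 17 decay factors, 5 of 18 paraspeckle proteins, 1 of 18 speckle proteins, 4 of 30 protein-coding hosts and 5 of 17 other lncRNAs. These counts stand beside 2290 of all 12285 genes tested.

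**Figure D3:**
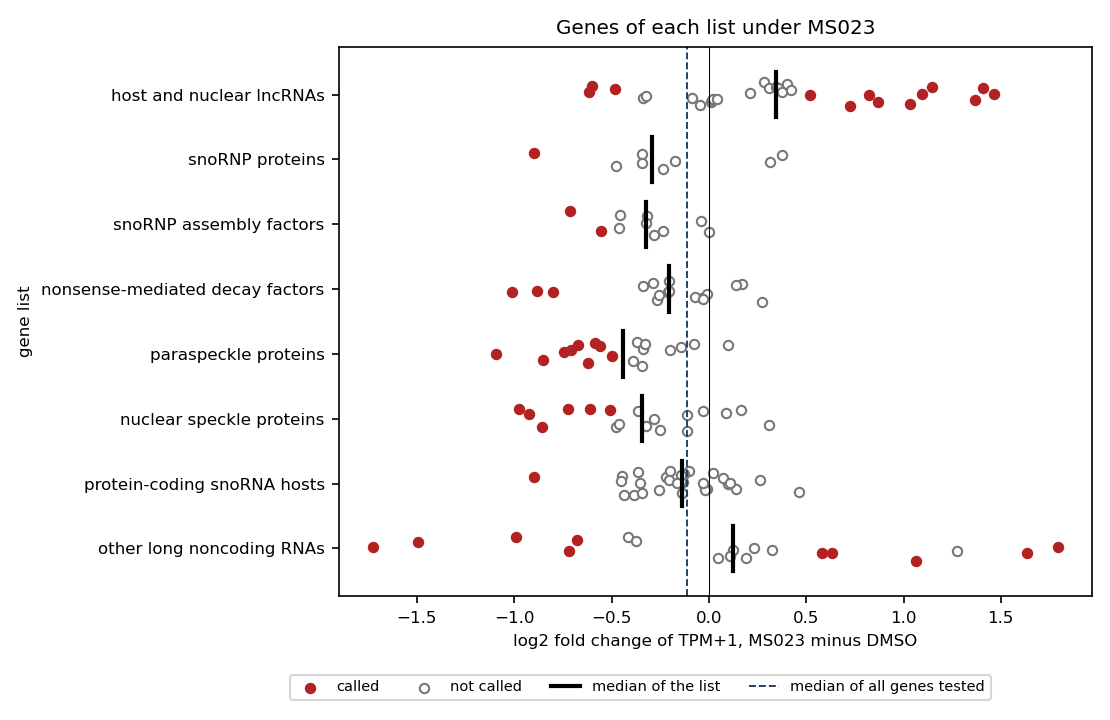
Log2 fold change with MS023 (x axis) of each tested gene (points, red where called) in the lncRNAs followed here and in 7 lists of related genes (y axis). Black bars mark the median of each list and the dashed line that of all genes tested (-0.11). The lncRNAs followed here have a median of 0.34, and the paraspeckle proteins have the lowest, -0.44.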

How the data were processed

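RNA of 12 JJN3 samples in 4 groups of 3 was analysed, and samples were grouped by their labels, with none left out. The authors deposited 1 table of log2(TPM+1) values for each gene and sample. By the study's methods and the submitters' processing notes, reads were trimmed with Trimmomatic, mapped to hg38 with STAR and quantified with Salmon. These values were used as they stand, and library type and strand are not given in the sources used here. TPM keep no read depth, so no count model was used, and fold changes on this scale understate those of low genes.

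The genes followed and the gene lists were chosen with earlier results of these data known. All 33 genes matched GENCODE v44 by symbol, while start windows and snoRNA positions come from RefSeq on GRCh38.p14. Genes with a group mean above 1 were fitted with limma 3.58.1 in R 4.3.3 (eBayes without trend), each comparison on its own 6 samples, except for the difference of the effects (all 12). P-values were adjusted by Benjamini-Hochberg over all genes tested. A gene was called at an adjusted p below 0.05 together with a log2 change of more than 0.48 in size, as in the study's methods. The calls with MS023 do not reproduce those of the study, which reports far fewer genes than the 3986 called here. For PRMT1-KO its number is close to the 96 called here. The reason for the difference was not tested. With 3 samples against 3, an exact two-sided permutation test cannot go below p = 0.1. Where the samples of 2 groups are said not to overlap, this describes their values. The share of all genes without overlap was not counted, so it adds nothing to a call.

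All 33 genes were to be accounted for, and genes called in any comparison are given in every sample. From each list the called genes with the largest changes, at most 4, and a defining member were named, except for some genes that are not reported here. The lists were snoRNP proteins, snoRNP assembly factors, nonsense-mediated decay factors, paraspeckle and nuclear speckle proteins, protein-coding snoRNA hosts, other lncRNAs, mitochondrially encoded mRNAs and markers of plasma cells, T cells, myeloid and stromal cells. Genes that overlap one of the 33 or stand beside it on the genome were named after their values were seen. In simulated data, 100 genes were changed by 1 and 100 by 2 (log2) in each design. In the MS023 design (12903 genes) 75% and 94% of them were recovered, and in the PRMT1-KO design (12285 genes) 84% and 95%. No smaller change was planted, so recovery near the fold threshold of the call was not assessed. Far fewer genes were planted than the 3986 called with MS023, so the shares need not hold for that comparison.

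Alternatives were a pseudocount of 0.1, no filter on low values, quantile normalization, scaling by median ratios, all 12 samples in one model, a trend in eBayes, the replicate number as a block and each sample left out in turn. Leaving out hosts with short transcripts was added after the data were seen.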

Additional observations from a re-analysis of the deposited data

Results flagged for a closer look

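The effects of MS023 and of PRMT1 targeting differed in 12 of the 29 lncRNAs tested, by an interaction term in limma (adjusted p under 0.05 and a log2 difference above 0.48). All 12 were higher. Of all 13256 genes tested, 24.4% were called in either direction and 9.69% were called higher. Each of the following values is the log2 fold change of MS023 against DMSO minus that of PRMT1-KO against isgCtrl. The largest were those of the 3 hosts with short transcripts, 2.16 for SNHG25 (limma adjusted p = 0.00537), 1.80 for SNHG9 (limma adjusted p = 0.00140) and 1.71 for SNHG19 (limma adjusted p = 1.85e-05). For these, MS023 gave a positive fold change and PRMT1 targeting a negative one that was not called. The differences were 1.11 for SNHG5, 1.08 for NEAT1, 1.07 for DANCR, 0.84 for SNHG8 and 0.84 for SNHG3. They were 0.80 for MALAT1, 0.78 for SNHG30, 0.73 for SNHG29 and 0.64 for SNHG21. NEAT1 and MALAT1 had positive fold changes in both comparisons, 1.41 and 0.33 for NEAT1 and 1.03 and 0.23 for MALAT1. The 2 pairs of groups also differ in Cas9, guide, doxycycline and DMSO, and in the level of the plasma cell markers SLAMF7 and MZB1. The part of these in the differences cannot be told apart.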

How the results depend on the processing

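Counts of called lncRNAs stayed within 1.5 times the reported value in each alternative, with 1 exception. After PRMT1 targeting the count went from 0 to 1 with a pseudocount of 0.1 (SNHG30). Over all genes the PRMT1-KO count, 96, was 48 without the filter on low values and 2 to 21 with 1 sample left out. With MS023 the count of lncRNAs was 12 to 14 over the other settings (10 of 26 with the short hosts left out) and 11 to 14 with 1 sample left out, for the difference of the effects 11 to 13 in both cases, and between the controls 5 to 7 and 6 to 8. Samples with the same replicate number did not vary together (r of -0.23 to 0.10 between their deviations from the group means), so the numbers were not taken as pairs. In the fit with the replicate block 13, 0, 12 and 6 lncRNAs were called, in the order MS023, PRMT1-KO, difference and controls, and PRMT1 itself was not called in PRMT1-KO cells (adjusted p = 0.149, with 0 genes called at all against 96 without the block and 2054 at an unadjusted p under 0.05, limma).

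Changes of sign were seen where no call was made. With MS023 and median-ratio scaling SNHG15 was 0.0643 and SNHG26 0.0947, and with quantile normalization SNHG26 was 0.108, GAS5 -0.0558 and PRMT1 -0.0259. After PRMT1 targeting, median-ratio scaling gave 0.0212 for SNHG5, 0.0090 for SNHG6, 0.0239 for SNHG8, 0.0064 for SNHG15 and 0.0397 for SNHG29, and quantile normalization gave 0.0011 for SNHG8. With 1 sample left out, the MS023 values spanned -0.0294 to 0.0587 for SNHG6, -0.0729 to 0.0748 for SNHG14, -0.0016 to 0.0754 for SNHG7 and -0.108 to 0.0400 for SNHG26. The PRMT1-KO values spanned -0.0715 to 0.0227 for SNHG5, -0.0116 to 0.114 for SNHG1, -0.0625 to 0.0589 for SNHG8, -0.0091 to 0.0602 for SNHG16, -0.0046 to 0.0277 for SNHG32 and -0.0132 to 0.0079 for SNHG29. The causes were not tested. Read depth is not kept in TPM, so its limits could not be set.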

Other observations

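The 13 mRNAs of the mitochondrial genome, which code for subunits of the respiratory chain and ATP synthase, made up 4.21% of all TPM with DMSO, 4.90% with MS023, 3.80% with isgCtrl and 3.58% with PRMT1-KO (means of 3 samples). With MS023 2 of the 13 rose and none fell, beside 11.6% of all genes called higher, with a median log2 fold change of 0.22. With median-ratio scaling 5 of the 13 rose (median 0.37), beside 2175 of 13002 genes. The 2 called without this scaling were MT-ND6 (0.78, limma adjusted p = 6.97e-04) and MT-ND5 (0.53, limma adjusted p = 0.00241), and the latter was 0.48, under the threshold of the call, without MS023 replicate 3. No such mRNA was called after PRMT1 targeting in limma, where 3 of 13 had an unadjusted p under 0.05, beside 2290 of all 12285 genes.

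None of the T cell or myeloid markers was high enough to test. Of the stromal markers 2 of 5 were tested with MS023, and COL1A1 was called, at means of 0.552 TPM with DMSO and 1.51 TPM with MS023 (log2 fold change 0.68, limma adjusted p = 0.0121), but not in the fit of all 12 samples (adjusted p = 0.250). SLAMF7, a plasma cell surface receptor, was at means of 9.32 TPM with DMSO and 52.2 TPM with MS023 (2.37, limma adjusted p = 5.52e-05).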
